A study of Homo sapiens with 9 samples.

Results

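Chaperones are proteins that hold or fold other proteins, and 10 of their genes are described here in SKBR3 cells with and without siRNA against PVRL4. They are CRYAB and HSPB1 (small heat shock proteins), HSPA1A, HSPA8, DNAJB1 and HSPH1 (the HSP70 machinery), HSP90AA1 and HSP90AB1 (cytosolic HSP90) and HSPD1 and HSPE1 (the mitochondrial chaperonin). They were chosen by symbol from the 20812 genes of the amplicon table, and all 10 averaged at least 1 RPM over the 9 libraries (reads of a gene scaled to a library total of 1000000 reads), the level required for a test. CRYAB entered the list because it was among the few genes called higher with siRNA 2 against control, so its values in that comparison, and in siRNA 2 against siRNA 1, which uses the same siRNA 2 libraries, are given for all 10 genes as a description with no p-value. Where those comparisons name a gene past the adjusted threshold, the call only restates the choice or shares its libraries, and nothing is read from it. Tests are given for siRNA 1 against control and for differences among replicate numbers.

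SKBR3 is an established human breast cancer line of luminal character with an amplified ERBB2 gene. There were 3 groups of 3 libraries: cells given 10 nM of a first siRNA against PVRL4 (siRNA 1), cells given 10 nM of a second one (siRNA 2), and cells given 10 nM of a non-targeting control siRNA, all delivered with Lipofectamine RNAiMAX and all treated for 48 h. PVRL4 encodes nectin-4, a cell adhesion molecule. The control siRNA came from another supplier than the PVRL4 siRNAs, no untransfected cells were among the samples used here, and all libraries come from 1 line, with nothing in the labels to say that the replicates were separate cultures. Libraries held 10017130 to 10707777 reads, so that 3 reads, the floor used here, correspond to 0.280 to 0.299 RPM. PVRL4 itself was at 5.99, 4.36 and 4.67 RPM in replicates 1, 2 and 3 of siRNA 1, at 3.39, 2.91 and 2.58 RPM with siRNA 2, and at 9.93, 7.86 and 11.6 RPM in control cells. No library of either PVRL4 siRNA reached the lowest control value. With siRNA 1, 5.59% of all tested genes lay below control in that way. Against control PVRL4 was past the adjusted threshold with siRNA 2. With siRNA 1 it was not (limma adjusted p = 0.0601). The exceptions were the fits with the replicate number as a block (0.0132) and with a pseudocount of 5 RPM (0.0474). Of 8 luminal markers, 7 were expressed, with summed levels of 9843 to 10320 RPM with siRNA 1, 8450 to 8980 RPM with siRNA 2 and 10010 to 10760 RPM in control cells; the mean of CDH1 was under the floor. In bulk RNA, fewer cells of a type and less RNA per cell cannot be told apart.

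Heat shock factor 1 (HSF1) is the main activator of chaperone genes under heat and other protein stress, and binds repeats of the letters GAA in alternating orientation. HSP70 proteins bind unfolded stretches of protein in a cycle driven by ATP: J proteins such as DNAJB1 deliver substrates and speed up ATP hydrolysis, and exchange factors such as HSPH1 release the nucleotide. HSP90 acts later, on nearly folded clients that include kinases and steroid receptors, ERBB2 among them. Small heat shock proteins keep unfolded proteins soluble without using ATP, and in mitochondria HSPD1 forms the barrel and HSPE1 the lid of a chamber in which imported proteins fold. Breast cancer cells often hold high levels of HSPB1 and HSP90.

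The promoters show which of these genes carry heat shock factor motifs close to their start. RefSeq promoter entries (GRCh38.p14; 250 bases before and 50 after each start) matched 9 of the 10 genes, in 15 windows, since several genes have more than 1 start. CRYAB has no entry. A motif of 3 alternating units, GAANNTTCNNGAA or TTCNNGAANNTTC, was in the windows of 4 of the 9 genes (HSPA8, HSP90AA1, HSP90AB1 and HSPD1), and in 0.49% of all 35116 promoter windows. A motif of 2 units, GAANNTTC or TTCNNGAA, which the longer motif contains, was in windows of 7 of the 9 genes, HSPA1A, HSPB1 and DNAJB1 being the additional ones, and in 13.5% of all windows. A gene counts here if any of its windows holds the motif, whereas the percentages count single windows, so these are not like for like. The letters of each motif read on both strands are covered by the paired spellings. HSPE1 and HSPH1 held none in their windows. A match is a description of the letters and not a bound site. The 3 stretches below are the 250 bases upstream of the start of the 3 genes with the smallest adjusted p for replicate numbers, 5′ to 3′ along the gene, with 2-unit motifs in capitals.
HSPA1A, chr6:31815293-31815542, plus strand: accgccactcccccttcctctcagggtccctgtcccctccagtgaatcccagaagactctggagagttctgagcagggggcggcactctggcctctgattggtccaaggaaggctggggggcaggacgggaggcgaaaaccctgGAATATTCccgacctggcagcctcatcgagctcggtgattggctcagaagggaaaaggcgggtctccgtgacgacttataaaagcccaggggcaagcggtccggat
HSPA8, chr11:123062137-123062386, minus strand: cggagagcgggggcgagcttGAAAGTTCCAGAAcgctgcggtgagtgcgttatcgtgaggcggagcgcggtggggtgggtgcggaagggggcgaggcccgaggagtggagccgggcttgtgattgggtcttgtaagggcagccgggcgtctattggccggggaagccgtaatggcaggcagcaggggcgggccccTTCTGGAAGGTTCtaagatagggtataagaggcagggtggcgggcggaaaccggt
HSPB1, chr7:76302423-76302672, plus strand: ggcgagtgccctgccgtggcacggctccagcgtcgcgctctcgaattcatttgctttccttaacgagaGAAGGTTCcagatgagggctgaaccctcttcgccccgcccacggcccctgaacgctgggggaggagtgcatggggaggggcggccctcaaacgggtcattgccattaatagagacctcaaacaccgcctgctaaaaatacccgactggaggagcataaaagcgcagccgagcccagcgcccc
The motif begins 106 bases upstream of the HSPA1A start and 182 bases upstream of the HSPB1 start. In HSPA8 there are 2 of the 3-unit motifs, the nearer beginning 55 bases upstream.

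A 3-unit motif of each HSP90 gene and the pair in HSPD1 are shown in 30 bases each, with the motifs in capitals, to compare their letters. HSP90AB1 holds 2 such motifs in its window, of which the one farther from the start is shown.
HSP90AA1, chr14:102087111-102087140, minus strand: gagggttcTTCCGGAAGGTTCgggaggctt
HSP90AB1, chr6:44247770-44247799, plus strand: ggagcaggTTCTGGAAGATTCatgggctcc
HSPD1, chr2:197500061-197500090, minus strand: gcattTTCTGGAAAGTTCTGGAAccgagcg
The HSPD1 stretch holds 2 overlapping 3-unit motifs. It belongs to the window of a second HSPD1 start. The first HSPD1 start (position 197500274, minus strand) lies 105 bases from the HSPE1 start (position 197500379, plus strand), head to head on chromosome 2, so that the chamber and its lid share a promoter region. The bases between both starts, on the plus strand, are the stretch that is common to the pair and hold no motif.
HSPD1 and HSPE1, chr2:197500275-197500378, plus strand: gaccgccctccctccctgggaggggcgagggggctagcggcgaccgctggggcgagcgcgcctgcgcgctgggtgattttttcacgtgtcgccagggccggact

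Against control, 8 of the 10 genes with siRNA 1 and 9 of the 10 with siRNA 2 differed by less than 1.2-fold. The exceptions were HSPA1A and HSPE1 with siRNA 1 and CRYAB with siRNA 2. Their summed level was 6709 to 7548 RPM with siRNA 1, 6512 to 7609 RPM with siRNA 2 and 6734 to 6962 RPM in control cells, so the groups overlapped. For siRNA 1 against control limma called 0 of the 10, where 0.851% of all 11158 tested genes were called. Of the 10 genes 1, HSPE1, had an unadjusted limma p under 0.05, as had 364 higher and 310 lower genes of all tested. The edgeR fit also called 0, as did limma with the replicate number as a block, which called 1.85% of all genes. With siRNA 1, 0 of the 10 lay above all control libraries and 0 below, against 6.4% and 5.59% of all genes. In siRNA 2 against control the 1 gene past the threshold is CRYAB, which was chosen for that, so the count is no result; 0.681% of all genes were past it (0.0358% higher), and 3.41% with the block, where the count is also 1. CRYAB and HSPE1 were higher in every siRNA 2 library than in every control library, as 4.99% of all genes were. The median log2 difference of the 10 genes was 0.02 with siRNA 1 and 0.05 with siRNA 2, against 0.01 and -0.02 over all tested genes. Both comparisons share the control libraries.

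**Figure D1:**
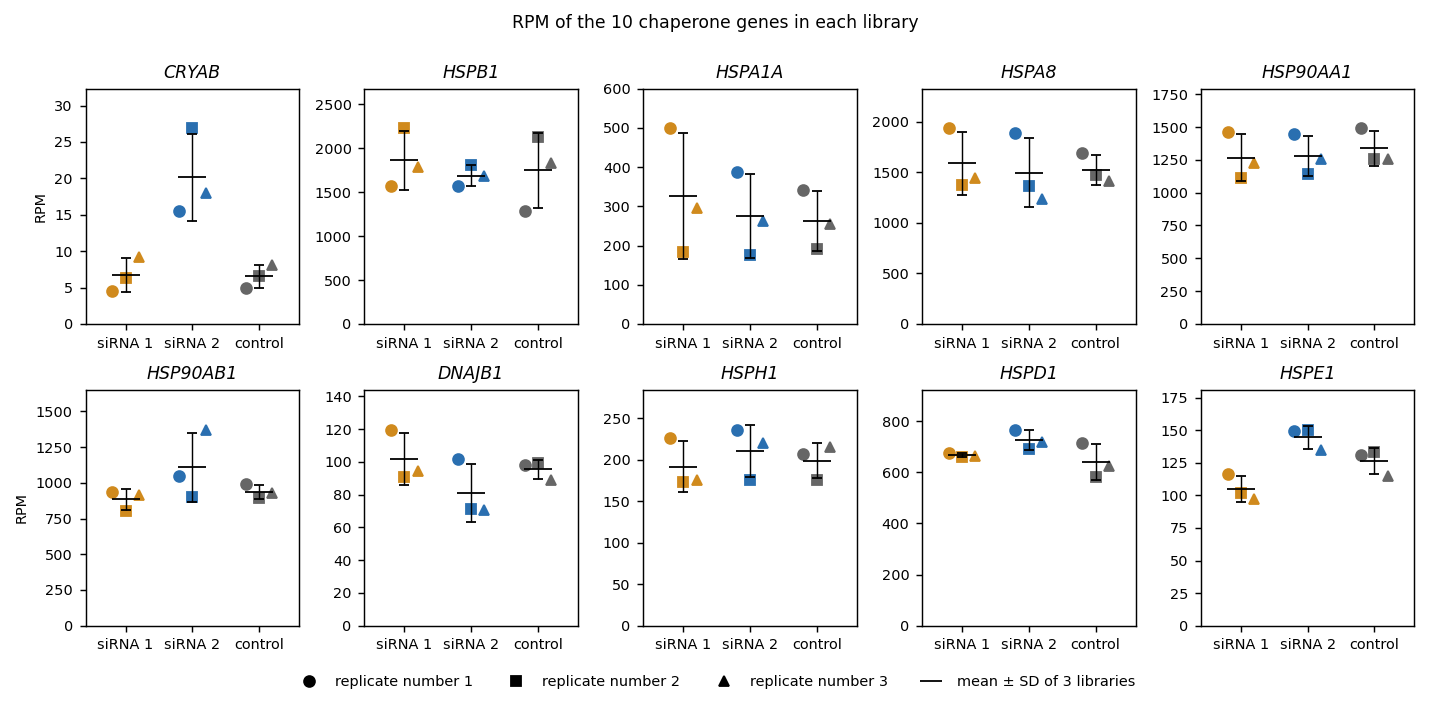
RPM of each of the 10 chaperone genes (panels, linear axes) in the 3 siRNA 1, 3 siRNA 2 and 3 control libraries, with a marker shape for each replicate number and lines for the group mean ± SD (n = 3). CRYAB stands apart in all 3 siRNA 2 libraries (15.5 to 26.9 RPM), while most other genes have overlapping groups.

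CRYAB (alphaB-crystallin) is a small heat shock protein abundant in lens, heart and muscle, which also binds actin, desmin and other filament proteins and is found in basal-like breast tumours. CRYAB was at 4.54, 6.29 and 9.15 RPM in replicates 1, 2 and 3 of siRNA 1, at 15.5, 26.9 and 17.9 RPM with siRNA 2, and at 4.87, 6.63 and 8.08 RPM in control cells. Every siRNA 2 library was above every siRNA 1 and every control library, whereas siRNA 1 and control libraries overlapped. These levels rest on 47 to 98 reads per library with siRNA 1, 155 to 278 with siRNA 2 and 51 to 82 in control cells, so all lie far above the floor of 3 reads. The group means were 6.66 ± 2.33 RPM with siRNA 1, 20.1 ± 6.04 RPM with siRNA 2 and 6.53 ± 1.61 RPM in control cells (SD, n = 3 each).

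The siRNA 2 mean of CRYAB was 3.08 times the control mean and 3.02 times the siRNA 1 mean. On the log2(RPM + 1) scale on which all differences below are given, siRNA 2 minus control was 1.47 and siRNA 2 minus siRNA 1 was 1.47 (SE 0.25 each). Between libraries of the same number the siRNA 2 minus control difference was 1.49, 1.87 and 1.06, largest in replicate 2 and smallest in replicate 3, whose control library was the highest of the 3 controls. The call that chose CRYAB depends on the libraries and settings used: it is not made when control replicate 1, control replicate 2 or siRNA 2 replicate 2 is left out, or in fits without the filter on low values or without the trended prior, and 0 of the 10 genes are then past the threshold. The siRNA 1 minus control difference was 0.00 (95% interval -0.53 to 0.54, limma adjusted p = 1.000).

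Markers of other cell types were compared because CRYAB is a muscle and basal gene. The summed level of the 8 luminal markers was lower in every siRNA 2 library than in every other library, and its part in the CRYAB difference was not tested. The 5 basal markers summed to 126 to 186 RPM with siRNA 1, 137 to 179 RPM with siRNA 2 and 163 to 206 RPM in control cells, with KRT14 and TP63 under the floor. EGFR made up most of that sum, with means of 153.6, 159.2 and 175.4 RPM in that order, so the sum says little of the others. KRT5 had means of 1.461, 2.005 and 1.637 RPM, and KRT17 had 5.185, 1.453 and 1.516 RPM. Each of these genes overlapped between siRNA 2 and control libraries. The 9 fibroblast and muscle markers summed to 17.7 to 19.3, 14.9 to 20.1 and 13.8 to 19.4 RPM in the same order of groups, with COL1A2, DCN, LUM and the muscle filament gene DES under the floor. Of the 6 leukocyte markers PTPRC was at 0 in all libraries, and their sum did not exceed 1.65 RPM. The basal, fibroblast and leukocyte sums of siRNA 2 libraries overlapped those of control libraries.

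CRYAB spans 111908565 to 111923722 on the minus strand of chromosome 11 in GENCODE 29 (GRCh38). HSPB2, a muscle small heat shock protein gene on the other strand, lies within that span at 111912242 to 111914093, and reads of overlapping genes could be shared where an amplicon does not separate them. HSPB2 had means of 0 RPM with siRNA 1, 0.096 RPM with siRNA 2 and 0.0317 RPM in control cells, all under the floor. CRYAA, the lens partner of CRYAB, was also under the floor, and HSPB8 was not among the deposited gene symbols.

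HSPB1 (HSP27), the small heat shock protein of most epithelial cells, was at 1565, 2233 and 1788 RPM in replicates 1, 2 and 3 of siRNA 1, at 1569, 1807 and 1689 RPM with siRNA 2 and at 1289, 2133 and 1830 RPM in control cells. The 3 groups overlapped, and replicate 1 was lowest and replicate 2 highest in each. Differences from control were 0.10 with siRNA 1 (95% interval -0.25 to 0.46, limma adjusted p = 1.000) and -0.02 with siRNA 2 (SE 0.17). Among libraries of a group CRYAB and HSPB1 varied together to a moderate degree (Pearson r of deviations from the group means 0.53 over 9 libraries, which share replicate numbers).

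Of the other small heat shock protein genes, 3 of 7 in the table were high enough to test, and limma called 0 in any contrast between groups (1 at an unadjusted p under 0.05 in siRNA 2 against control and 1 against siRNA 1; edgeR called HSPB7 against siRNA 1). HSPB7, a cardiac small heat shock protein that binds filamin, was at 25.5, 31.0 and 28.8 RPM in replicates 1, 2 and 3 of siRNA 1, at 50.9, 50.9 and 31.4 RPM with siRNA 2 and at 28.1, 27.5 and 29.3 RPM in control cells. Its siRNA 2 libraries lay above all others, by a narrow margin in replicate 3, and the siRNA 2 minus control difference was 0.60 (SE 0.17), past the threshold with the replicate number as a block or without siRNA 2 replicate 3. HSPB9 had differences of 0.18 with siRNA 1 and -0.30 with siRNA 2.

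In the HSP70 machinery the stress-inducible HSPA1A differed more within the groups than between them. HSPA1A was at 500.4, 184 and 296 RPM in replicates 1, 2 and 3 of siRNA 1, at 387, 175 and 263 RPM with siRNA 2 and at 342, 191 and 254.5 RPM in control cells. Replicate 1 was highest and replicate 2 lowest in all 3 groups, and the groups overlapped. Differences from control were 0.24 with siRNA 1 (95% interval -0.45 to 0.93, limma adjusted p = 1.000) and 0.03 with siRNA 2 (SE 0.32). HSPA1A and HSPA1B encode nearly the same protein, and the deposited row of each lists both gene numbers, so their reads may be shared. HSPA1A held 4.93 to 6.05 times the RPM of HSPA1B with siRNA 1, 4.61 to 5.54 times with siRNA 2 and 5.98 to 6.69 times in control cells, a ratio of amplicons and not of transcripts.

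HSPA8, the constitutive HSP70 of the cytosol, was at 1939, 1374 and 1446 RPM in replicates 1, 2 and 3 of siRNA 1, at 1887, 1367 and 1235 RPM with siRNA 2 and at 1692, 1470 and 1410 RPM in control cells. Replicate 1 was highest in all 3 groups. From control it differed by 0.04 with siRNA 1 (95% interval -0.29 to 0.38) and -0.05 with siRNA 2 (SE 0.16). The deposited row of HSPA8 also lists small nucleolar RNA genes hosted in its introns.

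DNAJB1 (HSP40), the J protein induced together with HSP70 under heat stress, was at 120, 90.5 and 94.5 RPM in replicates 1, 2 and 3 of siRNA 1, at 102, 71.2 and 70.9 RPM with siRNA 2 and at 98.4, 99.5 and 88.9 RPM in control cells. Replicates 2 and 3 of siRNA 2 were the lowest of all 9 libraries, while replicate 1 of siRNA 2 lay above all control libraries. DNAJB1 differed from control by 0.08 with siRNA 1 (95% interval -0.24 to 0.39) and -0.25 with siRNA 2 (SE 0.15), the opposite sign to CRYAB. Within each replicate number DNAJB1 was lower with siRNA 2 than with siRNA 1.

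HSPH1 (HSP105), an exchange factor for HSP70, was at 227, 174 and 175 RPM in replicates 1, 2 and 3 of siRNA 1, at 236, 175 and 220 RPM with siRNA 2 and at 206, 176 and 215 RPM in control cells. Replicate 2 was lowest in all 3 groups. The difference of HSPH1 from control was -0.06 with siRNA 1 (95% interval -0.35 to 0.23) and 0.08 with siRNA 2 (SE 0.14). The limma adjusted p of HSPA8, DNAJB1 and HSPH1 for siRNA 1 against control was 1.000.

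Around these genes, 7 other HSP70 family genes, 13 J proteins and 5 exchange factors were tested, and limma and edgeR called 0 against control with either siRNA (1 at an unadjusted p under 0.05, HSPA14 with siRNA 2). HSPA14, a ribosome-associated HSP70 partner, was at 69.0, 79.7 and 86.0 RPM in replicates 1, 2 and 3 of siRNA 1, at 110, 132 and 131 RPM with siRNA 2 and at 88.5, 70.3 and 94.2 RPM in control cells. It was higher in every siRNA 2 library than in every other library. The siRNA 2 minus siRNA 1 difference of 0.66 (SE 0.13) was past the threshold, as 3.05% of all genes were in that comparison, but not without siRNA 1 replicate 1, without siRNA 2 replicate 2 or without the trended prior. The siRNA 2 minus control difference of 0.56 was past it only with the block. HSPA6, the HSP70 gene that is nearly silent without stress in human cells, had means of 0.546 RPM with siRNA 1, 0.458 RPM with siRNA 2 and 0.511 RPM in control cells, under the level required for a test. BAG3, an exchange factor that partners small heat shock proteins, had means of 95.5, 95.1 and 87.4 RPM in the same order of groups. Over all 3 contrasts the exchange factor genes with the largest differences were BAG2 (0.20 with siRNA 1 and 0.36 with siRNA 2 against control) and HSPBP1 (-0.16 and 0.03, and 0.19 for siRNA 2 minus siRNA 1).

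Of the cytosolic HSP90 genes, HSP90AA1, the inducible form, was at 1462, 1113 and 1225 RPM in replicates 1, 2 and 3 of siRNA 1, at 1447, 1144 and 1255 RPM with siRNA 2 and at 1494, 1259 and 1258 RPM in control cells. The groups overlapped, with replicate 1 highest in each. Differences from control were -0.08 with siRNA 1 (95% interval -0.35 to 0.18) and -0.06 with siRNA 2 (SE 0.12). HSP90AB1, the constitutive form, was at 939, 802 and 916 RPM in replicates 1, 2 and 3 of siRNA 1, at 1049, 903 and 1373 RPM with siRNA 2 and at 989, 895 and 929 RPM in control cells. Replicate 3 of siRNA 2 was the highest of all libraries, and replicate 2 of siRNA 2 lay within the control range. Differences of HSP90AB1 from control were -0.08 with siRNA 1 (95% interval -0.37 to 0.20) and 0.22 with siRNA 2 (SE 0.13). For both genes the limma adjusted p for siRNA 1 against control was 1.000.

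HSP90 works with co-chaperones, and 14 of their genes were tested. For siRNA 2 minus control 13 of 14 differences were positive with a median of 0.16, against 5066 positive of all 11158 tested genes. Limma and edgeR called 0 of the 14 (4 at an unadjusted limma p under 0.05, and 0 with siRNA 1). Of all tested genes, 278 were higher and 773 lower at that unadjusted level with siRNA 2. The median of the 14 genes with siRNA 1 was 0.02. In 4 of them, where 4.99% of all genes did so, the siRNA 2 libraries lay above all control libraries. STIP1 (HOP), which hands clients from HSP70 to HSP90, was at 642, 650 and 717 RPM in replicates 1, 2 and 3 of siRNA 1, at 701, 713 and 751 RPM with siRNA 2 and at 560, 586 and 669 RPM in control cells. AHSA1, which stimulates the ATPase of HSP90, was at 175, 155 and 157 RPM in siRNA 1 libraries, at 187, 165 and 204 RPM in siRNA 2 libraries and at 159, 158 and 155 RPM in control libraries. The other two were PTGES3 (p23), with a siRNA 2 minus control difference of 0.28, and TTC4, with 0.29. Those 4 are named for their lack of overlap, which was seen first. Over all 3 contrasts the co-chaperone genes with the largest differences were CHORDC1 and FKBP5, at 0.32 and 0.38 for siRNA 2 minus siRNA 1. Against control CHORDC1 was at -0.08 with siRNA 1 and 0.24 with siRNA 2, and FKBP5 at -0.14 and 0.24.

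The heat shock factor genes themselves had 0 of 4 called by limma or edgeR in every comparison between groups (0 at an unadjusted p under 0.05). HSF1 had means of 67.7 ± 7.84 RPM with siRNA 1, 68.5 ± 6.15 RPM with siRNA 2 and 70.5 ± 8.96 RPM in control cells (SD, n = 3 each). HSF2 and HSF4, the 2 with the largest differences, were at -0.19 and -0.40 with siRNA 1 and at -0.07 and -0.34 with siRNA 2. HSF1 acts mainly through activation of the protein, which RNA levels do not show.

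The mitochondrial pair had similar differences from control with siRNA 2. With siRNA 1 the mean of HSPE1 was below control, while HSPD1 was close to control (0.06, 95% interval -0.14 to 0.27). HSPE1 (HSP10), the lid of the chaperonin, was at 116, 102 and 97.1 RPM in replicates 1, 2 and 3 of siRNA 1, at 149, 151 and 135 RPM with siRNA 2 and at 131, 134 and 115 RPM in control cells. Every siRNA 2 library was above every control library, with replicate 3 of siRNA 2 just above replicate 2 of control, and replicate 1 of siRNA 1 lay within the control range. The siRNA 1 minus control difference was -0.26 (95% interval -0.49 to -0.04) and was negative in all 3 pairs of the same number. It did not pass the threshold, with a limma p of 0.0251 and an adjusted p of 0.615 (0.142 with the replicate number as a block). The siRNA 2 minus control difference was 0.20 and siRNA 2 minus siRNA 1 was 0.46 (SE 0.11 each). The siRNA 2 libraries were the highest and the siRNA 1 libraries the lowest within every replicate number.

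HSPD1 (HSP60), the barrel, was at 675, 661 and 664 RPM in replicates 1, 2 and 3 of siRNA 1, at 768, 692 and 719.5 RPM with siRNA 2 and at 716, 580.5 and 625 RPM in control cells. The siRNA 2 libraries lay above all siRNA 1 libraries and overlapped the control range. From control HSPD1 differed by 0.06 with siRNA 1 (95% interval -0.14 to 0.27, limma adjusted p = 1.000) and 0.19 with siRNA 2 (SE 0.10). The ratio of HSPD1 to HSPE1 RPM, which compares 2 amplicons within a library, was 5.80, 6.47 and 6.83 in replicates 1, 2 and 3 of siRNA 1, 5.15, 4.60 and 5.35 with siRNA 2 and 5.48, 4.35 and 5.43 in control cells. It was higher in every siRNA 1 library than in every other library. Although both genes start from one promoter region, their deviations from the group means hardly varied together (r = 0.09 over 9 libraries). In GENCODE 29 HSPE1 (197499994 to 197503457, plus strand) lies inside the span of HSPD1 (197486581 to 197516737, minus strand), so reads where they overlap may not be separable, and both genes have processed copies elsewhere in the genome, as the cytosolic HSP90 and HSPA8 genes do.

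The comparison of siRNA 2 with siRNA 1 reuses the siRNA 2 libraries that chose CRYAB and is given as a description. The genes past the threshold were CRYAB and HSPE1, 2 of 10, both higher with siRNA 2, where 3.05% of all genes were past it (0.592% higher). That count became 1, CRYAB, when replicate 2 or 3 of siRNA 1, or replicate 1 or 2 of siRNA 2, was left out. With the replicate number as a block the count was 3, with DNAJB1 lower with siRNA 2, where 9.33% of all genes were past it. CRYAB, HSPD1 and HSPE1 were higher in every siRNA 2 library than in every siRNA 1 library, as 7.04% of all genes were. A strong marker of the siRNA 1 libraries was the interferon response: 8 interferon-induced genes summed to 4687, 581 and 1949 RPM in replicates 1, 2 and 3 of siRNA 1, to 39.2, 49.4 and 104 RPM with siRNA 2 and to 30.2, 40.4 and 33.0 RPM in control cells. HSPE1 was not lowest in replicate 1, where that sum was highest; the part of the response in the HSPE1 and HSPD1 values was not tested.

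**Figure D2:**
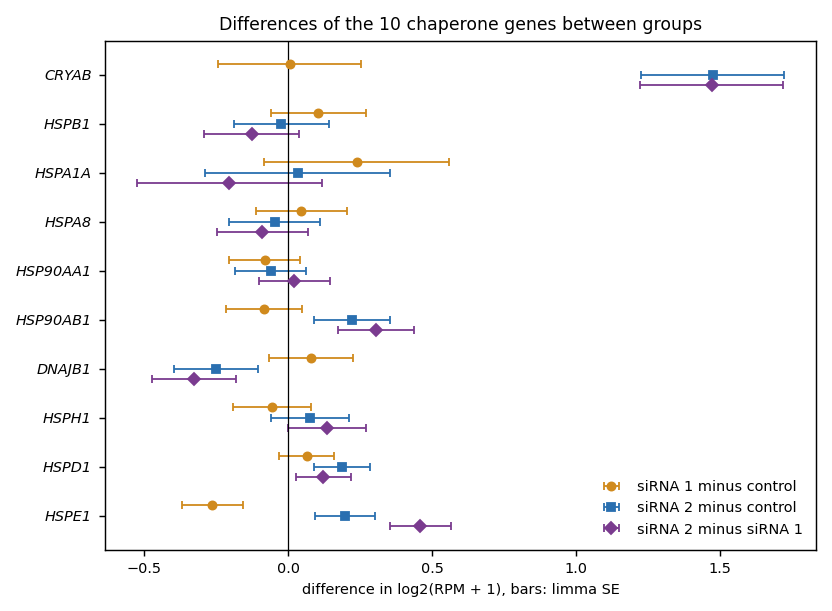
Differences of the 10 chaperone genes on the log2(RPM + 1) scale, for siRNA 1 minus control, siRNA 2 minus control and siRNA 2 minus siRNA 1. Bars show the limma SE and not a 95% interval. CRYAB is at 1.47 in both comparisons with siRNA 2 and at 0.00 in siRNA 1 minus control, and the other genes lie between -0.33 and 0.46.

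Of 11 other mitochondrial chaperone and protease genes tested, limma and edgeR called 0 in any contrast (1 at an unadjusted p under 0.05 in siRNA 1 against control and 0 in siRNA 2 against control). HSPA9 (mortalin), the mitochondrial HSP70, had means of 638 RPM with siRNA 1, 651 RPM with siRNA 2 and 631 RPM in control cells, and TRAP1, the mitochondrial HSP90, had 169, 150.1 and 170.5 RPM. Over all 3 contrasts CLPX and CLPP, parts of a matrix protease, had the largest differences. Against control they were at -0.36 and 0.08 with siRNA 1 and at -0.09 and -0.21 with siRNA 2, and CLPP was at -0.295 for siRNA 2 minus siRNA 1. In the cytosolic chaperonin and prefoldin list limma and edgeR called 0 of 14 (2 at an unadjusted p under 0.05 in siRNA 2 against control, 0 in siRNA 1 against control). For siRNA 2 minus control 12 of these 14 differences were positive with a median of 0.07, against 5066 positive of all 11158 tested genes. PFDN2 (0.31) and CCT3 (0.26) had the largest.

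The ER relatives of these chaperones held a gene past the threshold in the other direction from CRYAB. Of 8 tested, 1 was past the threshold in siRNA 2 against control and in siRNA 2 against siRNA 1, the ER form of HSP90, HSP90B1. Of all tested genes, 0.681% and 3.05% were past it in these comparisons. HSP90B1 was at 1909, 2109 and 2004 RPM in replicates 1, 2 and 3 of siRNA 1, at 1068, 1175 and 1392 RPM with siRNA 2 and at 1997, 2131 and 2097 RPM in control cells. All siRNA 2 libraries were below all others. Of all 11158 tested genes, 999 were lower in every siRNA 2 library than in every control library, and 1402 than in every siRNA 1 library. The siRNA 2 minus control difference was -0.78 for HSP90B1, against -0.06 for HSP90AA1 and 0.22 for HSP90AB1. HSPA5 (BiP), the ER form of HSP70, had means of 411 RPM with siRNA 1, 392 RPM with siRNA 2 and 429 RPM in control cells.

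**Figure D3:**
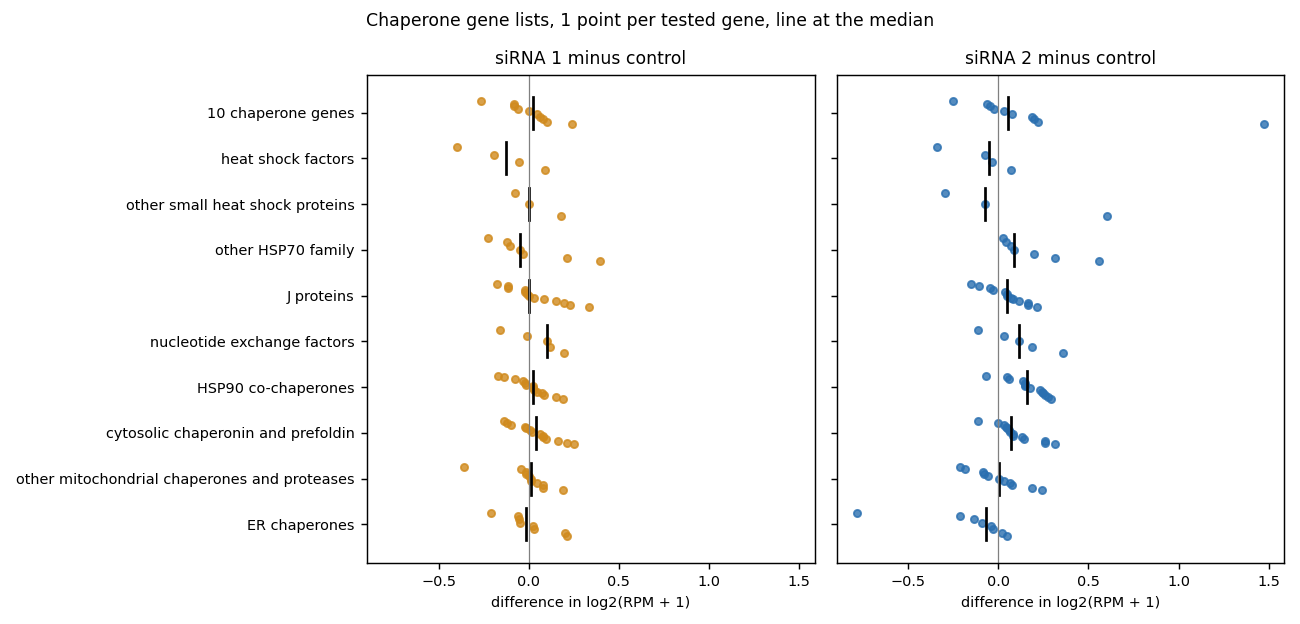
Differences of the tested genes of each chaperone list on the log2(RPM + 1) scale, for siRNA 1 minus control and siRNA 2 minus control, with a point per gene and a line at the list median. CRYAB (1.47) and HSP90B1 (-0.78) are the extremes with siRNA 2, and the list medians lie near 0.

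Several chaperone genes differed among replicate numbers. Sample titles number the replicates 1, 2 and 3 in every group and do not say what a number stands for. With the group as a term, limma's moderated F test over the 3 numbers called 5 of the 10 genes (edgeR called 5), while 9.77% of all tested genes were called. At an unadjusted p under 0.05 there were 8 of the 10 genes and 3243 of all 11158. This test does not use the contrasts that chose the genes. The largest range was in HSPA1A, with means of 410 RPM in libraries numbered 1, 183 RPM in those numbered 2 and 271 RPM in those numbered 3 (log2 range 1.14, limma adjusted p = 2.2e-05). HSPA1A in number 1 was 2.72 times that in number 2 with siRNA 1, 2.21 times with siRNA 2 and 1.79 times in control cells. The call for HSPA1A held under each of 17 alternatives, with adjusted p of 1.07e-05 to 0.0146.

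HSPA8 had means of 1839, 1404 and 1364 RPM in numbers 1, 2 and 3 (log2 range 0.43, limma adjusted p = 0.00819). HSPB1 ran the opposite way between numbers 1 and 2, with 1475, 2058 and 1769 RPM (range 0.48, adjusted p = 0.0132). HSP90AA1 had 1468, 1172 and 1246 RPM (range 0.33, adjusted p = 0.0259) and HSPH1 had 223, 175 and 203 RPM (range 0.35, adjusted p = 0.0452). All but HSPB1 were thus highest in number 1. The same order of the 3 numbers in all 3 groups was seen for HSPA1A, HSPB1 and HSPD1, 3 of 10 genes, against 10.5% of all tested genes.

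The other 5 genes did not pass with all 9 libraries. DNAJB1 had adjusted p = 0.0634, CRYAB 0.0710, HSP90AB1 0.131, HSPE1 0.207 and HSPD1 0.307 (limma). DNAJB1 was called when control replicate 1 (limma adjusted p = 0.0327) or control replicate 2 (0.0419) was left out. CRYAB was called without siRNA 2 replicate 3 (limma adjusted p = 0.0172). CRYAB means were 8.29, 13.3 and 11.7 RPM in numbers 1, 2 and 3, lowest in number 1 in each group.

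**Figure D4:**
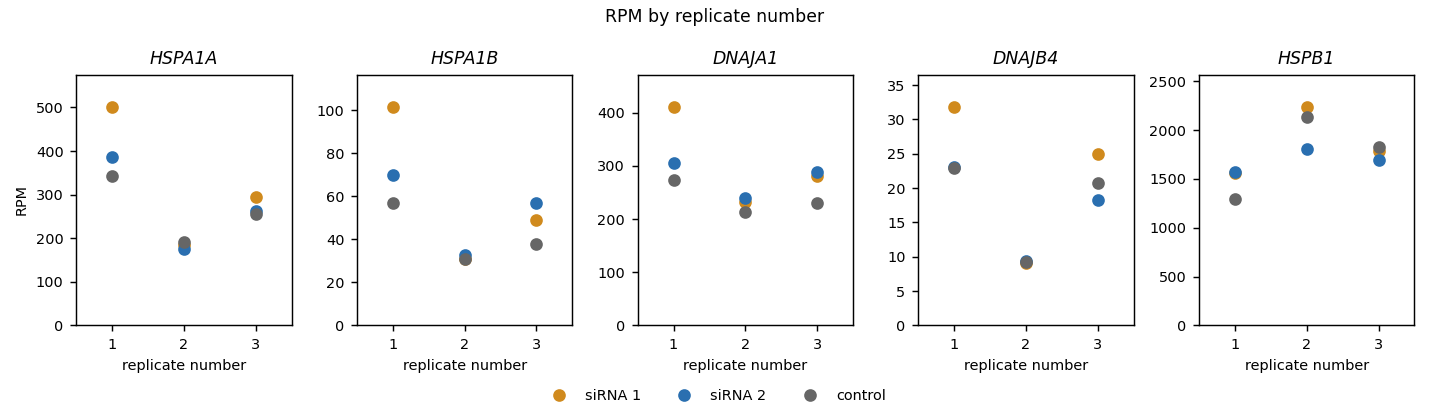
RPM of HSPA1A, HSPA1B, DNAJA1, DNAJB4 and HSPB1 (panels) by replicate number, with a point for each siRNA 1, siRNA 2 and control library. For the first 4 genes the points of all 3 groups are highest at number 1 and lowest at number 2, and for HSPB1 they are lowest at number 1 and highest at number 2.

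The calls by number rest on single libraries to differing degrees. Without the filter on low values, or without the trended prior, 1 of 10 genes was called (2.17% and 2.83% of all genes), which was HSPA1A. HSPA8 lost its call when siRNA 2 replicate 1 was left out (limma adjusted p = 0.0592). HSPB1 lost it with the first control library left out (0.0756), the second (0.0572) or the second of siRNA 1 (0.0509). HSP90AA1 lost its call without any one of the libraries other than control replicate 2 and siRNA 2 replicate 3 (adjusted p of 0.0562 to 0.120). HSPH1 lost it without replicate 2 or 3 of control, 1 or 2 of siRNA 1, or 1 or 2 of siRNA 2 (0.0693 to 0.173). The count fell to 3 when replicate 3 of control, 1 of siRNA 1 or 2 of siRNA 2 was left out, to 2 without replicate 2 of siRNA 1 or 1 of siRNA 2, and was 6 without replicate 3 of siRNA 2.

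The genes highest in number 1 included other cytosolic HSP70 partners. HSPA1B, the near copy of HSPA1A, had means of 76.1, 31.5 and 48.0 RPM in numbers 1, 2 and 3 (limma adjusted p = 0.000222). DNAJB4, a J protein of heart and other tissues, had 25.9, 9.26 and 21.4 RPM (adjusted p = 3.4e-05), and DNAJA1, a J protein of the cytosol, had 330, 228 and 266.5 RPM (adjusted p = 0.00958). All 3 were lowest in number 2 in each group. These genes were seen first and then named, as were the third J protein called, DNAJC9, and DNAJB9 of the ER list. In all, 1 of 7 other HSP70 genes, 3 of 13 J proteins, 2 of 14 HSP90 co-chaperones (CHORDC1 and NUDC) and 1 of 8 ER relatives were called, as were 0 of 5 exchange factors, 0 of 14 chaperonin and prefoldin genes, 0 of 11 mitochondrial genes, 0 of 3 small heat shock proteins and 0 of 4 heat shock factors (limma; 4, 7, 1, 1 and 1 at an unadjusted p under 0.05). The edgeR fit gave the same counts in these lists. Since 9.77% of all genes were called, nothing particular to a list is read from these counts. The calls of CHORDC1, NUDC, DNAJC9 and DNAJB9 were lost with 6, 7, 3 and 2 of the 9 libraries left out one at a time, and those of HSPA1B, DNAJB4 and DNAJA1 with 0. Without the filter on low values or without the trended prior DNAJA1 (limma adjusted p = 0.0574 and 0.0940), DNAJC9, CHORDC1, NUDC and DNAJB9 were not called, and HSPA1B and DNAJB4 were.

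Library sizes overlapped between the numbers, at 10017130 to 10477695 reads in number 1, 10319376 to 10555367 in number 2 and 10145423 to 10707777 in number 3, and their part in these differences was not tested. Within siRNA 1 the interferon sum had the order of HSPA1A (number 1 highest, number 2 lowest); in the siRNA 2 and control libraries, where HSPA1A kept that order, it did not, and the highest sum there was 104 RPM. The part of the interferon response in the size of the siRNA 1 values was not tested.

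**Figure D5:**
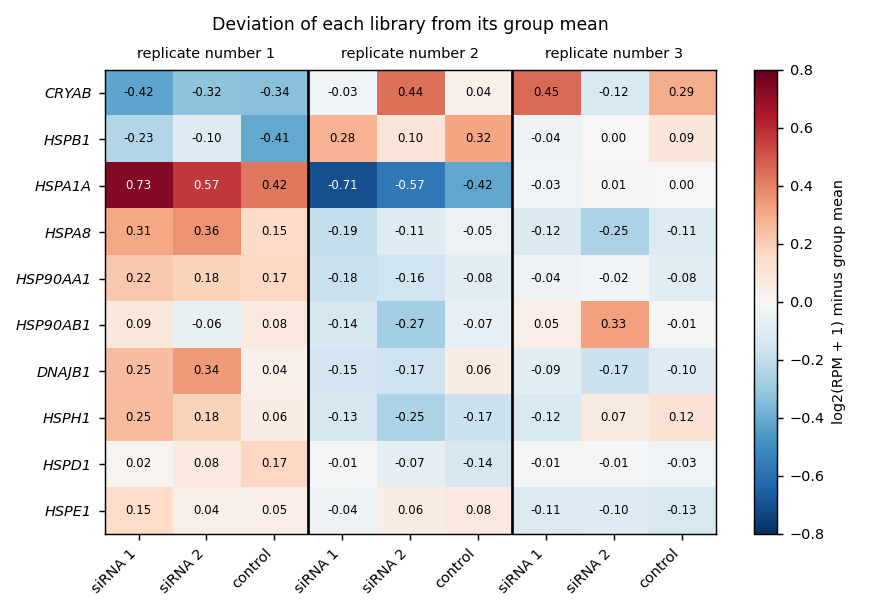
Deviation of each chaperone gene (rows) in each of the 9 libraries (columns) from the mean of its group, on the log2(RPM + 1) scale, with columns ordered by replicate number. HSPA1A is above its group mean in all 3 libraries numbered 1 and below it in all 3 numbered 2, and HSPB1 shows the opposite.

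Deviations from the group means show which chaperone genes moved together from library to library. HSPA1A and HSP90AA1 had r = 0.96, HSPA1A and HSPA1B 0.98 and HSPA8 and DNAJB1 0.95, while HSPB1 and HSPA1A had -0.84. CRYAB and HSPA1A had -0.67. These are descriptions over 9 libraries that share 3 replicate numbers.

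Among the 7933 genes that averaged at least 10 RPM, the 6 whose level over the 9 libraries was most like that of CRYAB were SLC29A1, a nucleoside transporter gene (Pearson r = 0.95, Spearman rho = 0.92), the kinase gene MAP2K3 (r = 0.93), LSM12 (0.93), the desmosomal cadherin gene DSG2 (0.92), the adhesion molecule gene MCAM (0.92) and the transcription factor gene RFX5 (0.92). SLC29A1 had means of 64.0 RPM with siRNA 1, 87.1 RPM with siRNA 2 and 64.7 RPM in control cells. MCAM had 8.50, 21.9 and 9.68 RPM in the same order of groups, and its siRNA 2 libraries, like those of CRYAB, were highest in replicate 2 and lay above all others. Since these genes were picked for likeness to CRYAB over the same 9 libraries, a shared pattern largely follows from the choice. The genes most like HSPA1A were HSPA1B (r = 0.96), PIK3R4 (0.96) and MMS22L (0.96), those most like HSPB1 were RPS15A (0.96), RGL3 (0.93) and ZNF445 (0.92), and those most like HSPD1 were VTA1 (0.96), TEAD4 (0.94) and CHCHD3 (0.93). No other member of the 10 was among these.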

How the data were processed

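The values the authors deposited are RPM (reads of an amplicon, scaled to a total of 1000000 per library) of 20812 genes in 9 libraries, made per the labels' protocols from 100 ng of total RNA with the Ion AmpliSeq transcriptome kit, which reads 1 amplicon per gene. Per the submitters' processing notes the build was hg19; the aligner is not given in the sources used here. RPM removes differences in total RNA, and amplification differs between amplicons, so levels are compared within a gene. Values were whole multiples of 1 read, within 0.1 read, and gave back the read counts used by edgeR as an alternative. Reads carry no molecular identifiers, so floors cover counting error only.

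Tests used limma 3.58.1 in R 4.3.3 on log2(RPM + 1) and a trended prior variance, for 11158 genes that averaged at least 1 RPM; the 3 groups shared 1 estimate of the spread, tests were two-sided, and p-values were adjusted over all tested genes by Benjamini-Hochberg with a threshold of 0.05. The code was tested on simulated data. Differences among replicate numbers were tested by limma's moderated F with group as a term. Alternatives were pseudocounts, filters, scalings, the replicate block, edgeR 4.0.16 (quasi-likelihood), fits on 6 libraries and leaving out each library.

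Replicate numbers in the sample titles pair the samples: in the 9 pairs with the same number, deviations from the group means had r of 0.252 to 0.417, and in the other 18 pairs -0.340 to -0.0275. Libraries of a group differed by more than counting noise (chi-square per degree of freedom 8.95 to 23.7). Nothing in the labels says that replicates came from separate cultures; a p-value here measures the spread between the samples, possibly a technical one. Besides the 10 genes and PVRL4, up to 4 genes past the threshold are named per list, or the 2 with the largest change where none passed, and the genes most correlated with CRYAB (6), HSPD1, HSPA1A and HSPB1 (3 each). The genes and lists were chosen with earlier results of these data known.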

Additional observations from a re-analysis of the deposited data

Results flagged for a closer look

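2 genes stood out because their level differed between the PVRL4 siRNAs although both siRNAs target the same gene. CRYAB was higher with siRNA 2 than with siRNA 1 by 1.47 on the log2(RPM + 1) scale, and HSPE1 by 0.459. CRYAB was at 15.5 to 26.9 RPM with siRNA 2 and at 4.54 to 9.15 RPM with siRNA 1, and HSPE1 at 135 to 151 RPM with siRNA 2 and at 97.1 to 116 RPM with siRNA 1, with no overlap in either case. The comparison shares its siRNA 2 libraries with the one that put CRYAB in the list, so both differences are given as a description.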

How the results depend on the processing

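Of 190 values of the 10 genes for siRNA 1 minus control under alternatives, 175 kept their side and the 15 others changed sign, HSPA1A (0.24 in all 9 libraries) and HSPB1 (0.10) among them. With TMM and median-of-ratios scaling CRYAB was at -0.0082 and -0.0093, and HSPB7 at -0.011 and -0.013 (edgeR -0.0037). With 1 library left out the ranges were -0.22 to 0.22 for CRYAB, -0.10 to 0.26 for HSPB1, -0.13 to 0.59 for HSPA1A, -0.11 to 0.14 for HSPA8, -0.19 to 0.0063 for HSP90AA1, -0.045 to 0.15 for DNAJB1, -0.18 to 0.0081 for HSPH1 and -0.0048 to 0.15 for HSPD1. For other genes they were -0.059 to 0.077 (HSPB7), -0.060 to 0.78 (HSPA1B), -0.15 to 0.74 (DNAJB4), -0.079 to 0.28 (DNAJC9), -0.19 to 0.035 (CHORDC1), -0.067 to 0.16 (NUDC), -0.033 to 0.30 (HSPB9), -0.030 to 0.32 (BAG2) and -0.00095 to 0.036 (CCT3). The median difference from control of all tested genes was 0.014 with siRNA 1 and -0.022 with siRNA 2 before scaling. After TMM scaling these medians were 0 and -0.001, and after median-of-ratios scaling -0.001 and 0.007. For siRNA 2 minus control, some ranges with 1 library left out also crossed 0. They were -0.23 to 0.13 for HSPB1, -0.25 to 0.32 for HSPA1A and -0.23 to 0.080 for HSPA8. For HSP90AA1 the range was -0.15 to 0.020 and for HSPH1 -0.014 to 0.20. CRYAB (1.25 to 1.63), HSP90AB1, DNAJB1, HSPD1 and HSPE1 kept their sign. Members called for siRNA 1 against control were 0 in every setting. For siRNA 2 against control the count of 1 was 0 without the filter on low values and 0 without the trended prior, and 0 to 1 with 1 library left out. For siRNA 2 against siRNA 1 the count of 2 was 1 without the trended prior, 1 with only the 6 libraries compared and 1 to 2 with 1 library left out. For the replicate numbers the count of 5 was 1 without the filter, 1 without the trended prior and 2 to 6 with 1 library left out; it was 4 with a pseudocount of 5 RPM. The cause of these changes was not tested. The replicate block gave 0, 1 and 3 called members for siRNA 1 against control, siRNA 2 against control and siRNA 2 against siRNA 1, and changed no other call among the members. CRYAB, at 47 to 278 reads per library, had the fewest reads of the 10 genes.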
